A study of Homo sapiens with 4 samples.

Results

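The enzymes that build and limit the deoxynucleotide pool were examined as 8 genes, *TYMS*, *RRM1*, *RRM2*, *TK1*, *DUT*, *DCK*, *DTYMK* and *SAMHD1*, which were chosen by symbol and found through their Ensembl IDs among the 58226 gene IDs of the count tables. All 8 had a GENCODE 29 symbol, and all 8 passed the filter of a mean CPM (the fragment count of a gene scaled to a common library total) of at least 1 in each comparison. The libraries came from U87MG, an established human glioblastoma line, and from R-U87MG, its temozolomide (TMZ)-resistant derivative, which was kept in medium with 50 µM TMZ. R-U87MG cells received non-targeting control siRNA (si-NC) or siRNA against *HDAC6*, the gene of a largely cytoplasmic deacetylase, and U87MG cells received si-NC or siRNA against the long non-coding RNA *LINC00461*. The non-targeting and *HDAC6* siRNAs were pools of several sequences, whereas the listed *LINC00461* siRNA has a single sequence. RNA was taken 72 h after transfection, and each condition had 1 library from 1 line, so that no difference below has a replicate check and no p-value is given.

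DNA synthesis needs a balanced supply of the 4 deoxynucleotides. In the de novo route, ribonucleotide reductase, a complex of the large subunit RRM1 with a small subunit, RRM2 or RRM2B, reduces ribonucleotides. Thymidylate synthase (TYMS) then methylates dUMP to dTMP with a folate cofactor, and the dUTPase DUT supplies dUMP while keeping uracil out of DNA. In the salvage route, the thymidine kinase TK1 and the deoxycytidine kinase DCK phosphorylate deoxynucleosides, and DTYMK phosphorylates dTMP from either route. SAMHD1 hydrolyses deoxynucleoside triphosphates and so acts in the opposite direction. *TYMS*, *RRM2* and *TK1* are known as genes of dividing cells, whereas *RRM2B*, *TK2* and *DGUOK* encode counterparts that also serve non-dividing cells or mitochondria.

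The start-site regions of 5 of these genes are shown because these genes span the range from the largest to the smallest response to si-*LINC00461*; they were picked after the values were seen. Each is the RefSeq window from 250 bases before to 50 bases after an annotated start in GRCh38.p14, read 5′ to 3′ on the gene's strand. The windows lie at chr18:657403-657702 (plus strand) for *TYMS*, chr2:10122489-10122788 (plus strand) for *RRM2*, chr17:78187003-78187302 (minus strand) for *TK1*, chr15:48331947-48332246 (plus strand) for *DUT* and chr20:36951659-36951958 (minus strand) for *SAMHD1*. Capitals mark letters that match an E2F motif (TTTCCCGC, TTTGGCGC, TTTCGCGC or TTTGCCGC) or CCAAT, on either strand. *RRM2*, *TK1* and *DUT* have other annotated starts with windows of their own. For each of them, the window shown held more of these matches than the gene's other windows.
TYMS: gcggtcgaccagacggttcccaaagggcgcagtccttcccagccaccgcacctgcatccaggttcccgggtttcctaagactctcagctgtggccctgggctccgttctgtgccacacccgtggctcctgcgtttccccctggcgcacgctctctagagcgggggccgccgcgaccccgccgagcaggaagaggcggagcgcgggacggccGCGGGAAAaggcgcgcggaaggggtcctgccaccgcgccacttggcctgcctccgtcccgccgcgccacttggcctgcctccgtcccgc
RRM2: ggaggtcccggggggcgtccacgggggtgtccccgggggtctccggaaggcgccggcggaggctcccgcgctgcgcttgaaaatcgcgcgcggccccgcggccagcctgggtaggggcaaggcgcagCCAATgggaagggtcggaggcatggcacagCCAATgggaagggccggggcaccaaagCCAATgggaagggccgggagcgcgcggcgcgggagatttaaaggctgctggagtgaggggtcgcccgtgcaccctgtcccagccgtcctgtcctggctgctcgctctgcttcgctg
TK1: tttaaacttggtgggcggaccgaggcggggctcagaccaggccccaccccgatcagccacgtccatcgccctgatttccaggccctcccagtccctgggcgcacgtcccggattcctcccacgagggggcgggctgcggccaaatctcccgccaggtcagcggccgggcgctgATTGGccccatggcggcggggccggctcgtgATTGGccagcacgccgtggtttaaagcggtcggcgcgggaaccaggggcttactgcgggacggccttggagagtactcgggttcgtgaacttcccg
DUT: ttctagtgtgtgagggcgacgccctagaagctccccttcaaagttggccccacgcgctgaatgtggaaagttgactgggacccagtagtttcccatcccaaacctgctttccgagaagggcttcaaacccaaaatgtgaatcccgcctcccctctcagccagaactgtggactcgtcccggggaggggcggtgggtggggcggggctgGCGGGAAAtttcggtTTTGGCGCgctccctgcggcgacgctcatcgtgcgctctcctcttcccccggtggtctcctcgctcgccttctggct
SAMHD1: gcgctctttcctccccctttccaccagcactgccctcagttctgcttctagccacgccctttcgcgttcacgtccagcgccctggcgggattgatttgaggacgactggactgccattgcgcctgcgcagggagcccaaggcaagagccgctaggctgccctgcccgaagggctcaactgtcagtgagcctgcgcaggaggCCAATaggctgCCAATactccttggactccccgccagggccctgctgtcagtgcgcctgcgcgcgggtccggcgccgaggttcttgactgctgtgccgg
Over the 13 RefSeq windows of the 8 genes, 3 held an E2F match, 1 each for *TYMS*, *DUT* and *DCK*, and 3.31% of all 35116 windows held one. The *TYMS* match began at −39 from the start and the *DUT* matches began at −42 and −27. CCAAT was found in 6 of the 13 windows against 34.6% of all windows, and in the *RRM2* window it was repeated at −123, −93 and −66. The *TK1* window carried the reverse complement ATTGG at −77 and −46. The cell cycle gene motif CHR (TTTGAA or TTCGAA) was found in 3 of 13 windows against 16.4% of all, and the GC box (GGGCGG) in 9 of 13 against 45.0%. Some windows of the same gene overlap, so the same letters can count more than once. By gene, 3 of 8 held an E2F match, 5 of 8 CCAAT, 3 of 8 CHR and 6 of 8 a GC box. The shares of all windows are no background for these counts by gene. A gene with several windows has more chances of a match, and no share over all genes was computed. Of the genes that differed most below, *TYMS* held an E2F match and *TK1* and *RRM2* held none in these windows. A match is a run of letters, not evidence of binding.

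The libraries held 12596072 to 20027866 fragments over annotated genes, and 3 fragments, the limit that a count of 0 allows, corresponded to 0.150 to 0.238 CPM. Fragments of *HDAC6* numbered 296 in R-U87MG si-NC and 67 after its knockdown (log2 ratio −1.74, interval −2.16 to −1.36). Those of *LINC00461* numbered 363 in U87MG si-NC and 73 after its knockdown (log2 ratio −2.12, interval −2.51 to −1.76). *VIM* (3170 to 6940 CPM), *CD44* (1604 to 1770 CPM) and *NES* (35.0 to 43.0 CPM) were detected in all libraries, whereas the glial markers *GFAP* (0 to 0.731 CPM) and *SOX2* (0 to 0.225 CPM) were at or near 0. *OLIG2*, a glial lineage factor, was low at 0.749 to 9.13 CPM, with 92 fragments in R-U87MG si-NC and 15 in U87MG si-NC (log2 ratio 2.58). Of 7 markers of other cell types, *PTPRC*, *HBB* and *RBFOX3* did not exceed 0.481 CPM, *MBP* and *EPCAM* stayed at 0.397 to 1.85 CPM, and *KRT8* ranged from 1.98 to 9.90 CPM. *PECAM1*, an endothelial adhesion gene, had 52 fragments in U87MG si-NC and 433 in U87MG si-*LINC00461*, a log2 ratio of 3.23, and its part in the results below was not tested.

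Levels of different genes were compared per length, as CPM per kilobase of GENCODE 29 exon. The length is that of all annotated exons of a gene merged, which can exceed that of the transcripts present. Orders and ratios between genes depend on it, and the intervals do not cover it. Intervals here and below are exact 95% Clopper-Pearson intervals, and they cover counting error only. In R-U87MG si-NC, the small and large reductase subunits led, with *RRM2* at 75.6 (73.8 to 77.4) and *RRM1* at 58.3 (56.5 to 60.1), followed by *TK1* at 49.7 and *TYMS* at 48.3, whose intervals overlapped. *DTYMK* (25.5), *DUT* (20.0) and *DCK* (14.2) came next, and *SAMHD1* was lowest at 3.84. In R-U87MG si-*HDAC6* the order was the same, from *RRM2* at 66.9 to *SAMHD1* at 3.54, but the intervals of *RRM1* (49.9) and *TK1* (45.9) overlapped.

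In U87MG si-NC the order differed at its top. *TK1* was highest at 35.7 (33.8 to 37.7), *RRM1* (24.2) and *TYMS* (22.7) could not be separated, and *RRM2* came after them at 19.1 (18.3 to 20.0). In U87MG si-*LINC00461*, *RRM1* was highest at 12.7 (11.9 to 13.6) and *TYMS* was the lowest of the 8 at 2.14 (1.73 to 2.62), under *SAMHD1* at 3.81 (3.54 to 4.09). *TK1* (5.98) and *DTYMK* (5.90) overlapped there, as did each neighbouring pair from *RRM2* (4.68) through *DUT* (4.58) and *SAMHD1* (3.81) to *DCK* (3.43). The 8 genes together took 1083 CPM in R-U87MG si-NC, 954 in R-U87MG si-*HDAC6*, 464 in U87MG si-NC and 180 in U87MG si-*LINC00461*. The libraries of each line were scaled by the authors as a separate pair, and levels set across the lines rest on library totals recovered here. The log2 ratios below use a further scaling, so across the lines they differ from folds read off these levels.

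**Figure D1:**
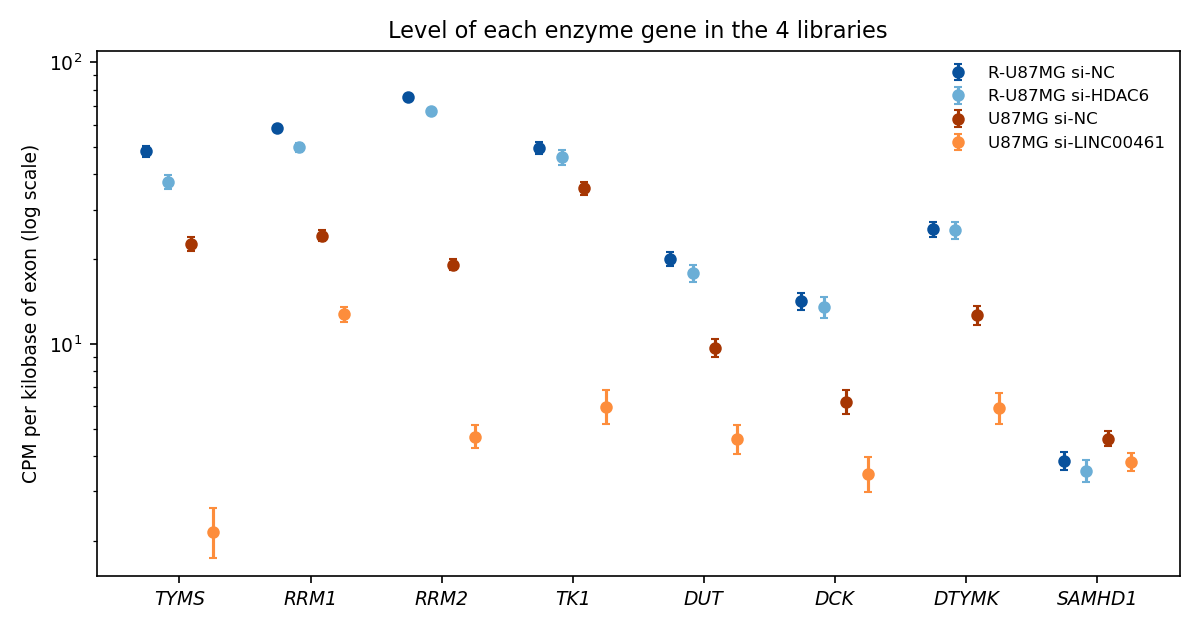
Level of each of the 8 genes in the 4 libraries, in CPM per kilobase of exon on a log axis, with 1 library per point and bars for the 95% counting interval. *TYMS* is at 22.7 in U87MG si-NC and 2.14 in U87MG si-*LINC00461*, whereas *SAMHD1* lies between 3.54 and 4.60 in all 4 libraries.

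The comparison of si-*LINC00461* with si-NC in U87MG asks how these genes stand after depletion of the lncRNA. All 8 genes were lower, and 5 of 8 (*TYMS*, *TK1*, *RRM2*, *DTYMK* and *DUT*) were at least 2-fold lower, against 8.17% of the 13210 genes compared. No member was at least 2-fold higher, against 5.42% of all genes. The median log2 ratio of the 8 genes was −1.07, and that of all genes was −0.00. For *TYMS*, *TK1* and *RRM2* the whole counting interval lay beyond 2-fold, which held for 4.78% of all genes. That share also depends on fragment counts, since intervals are wider for genes with few fragments. RNA from a whole culture cannot tell fewer cells that express a gene from less of its RNA per cell.

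*TYMS* (chr18:657604-673578, plus strand, GRCh38) makes the dTMP of the de novo route. It had 1122 fragments in U87MG si-NC and 94 in U87MG si-*LINC00461*, with 1987 in R-U87MG si-NC and 1167 in R-U87MG si-*HDAC6*. The U87MG si-*LINC00461* library was thus far under the other 3. Its log2 ratio in U87MG was −3.38 (−3.71 to −3.09), a 10.4-fold lower level, and placed *TYMS* at rank 10 from the lowest of 13210 genes. The gene overlaps 2 antisense genes, *ENOSF1* over 3255 bases and *TYMSOS* over 737 bases. *ENOSF1* had 1110 fragments in U87MG si-NC and 753 in U87MG si-*LINC00461* (log2 ratio −0.37), and *TYMSOS* had 29 and 7. The kit keeps strand, but the strand setting of the counting is not given in the sources used here, so how fragments were divided between *TYMS* and *ENOSF1* was not tested.

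*TK1* (chr17:78174075-78187233, minus strand), the cytosolic thymidine kinase, had 1332 fragments in U87MG si-NC and 198 in U87MG si-*LINC00461*, with 1540 in R-U87MG si-NC and 1077 in R-U87MG si-*HDAC6*. Here too the U87MG si-*LINC00461* library stood alone at the bottom. The log2 ratio was −2.56 (−2.79 to −2.35), or 5.90-fold lower, at rank 89 from the lowest.

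*RRM2* (chr2:10120698-10131419, plus strand) encodes the small reductase subunit whose protein is limited to dividing cells. It had 2037 fragments in U87MG si-NC and 443 in U87MG si-*LINC00461*, a log2 ratio of −2.01 (−2.17 to −1.86), or 4.04-fold lower, at rank 221. *RRM1* (chr11:4094707-4138876, plus strand), the large subunit, had 2027 fragments in U87MG si-NC and 945 in U87MG si-*LINC00461*, a log2 ratio of −0.91 (−1.03 to −0.80). The interval of *RRM2* lay wholly below that of *RRM1*, so within 1 enzyme the small subunit differed more than the large one. A share of 20.2% of the 50-base stretches of *RRM2* transcripts also occurs in other annotated genes, mainly an overlapping same-strand gene and a pseudogene, and how multiply placed fragments were treated is not given in the sources used here.

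*DTYMK* (chr2:241675742-241686991, minus strand), the dTMP kinase, had 620 and 257 fragments in U87MG si-NC and si-*LINC00461*, a log2 ratio of −1.08 (−1.30 to −0.87). *DUT* (chr15:48331011-48343373, plus strand), the dUTPase, had 711 and 299 fragments, a log2 ratio of −1.06 (−1.26 to −0.87). *DCK* (chr4:70992538-71030914, plus strand), the deoxycytidine kinase, had 403 and 197 fragments, a log2 ratio of −0.84 (−1.10 to −0.60). Neighbouring intervals overlapped from *DTYMK* through *DUT* and *RRM1* to *DCK*, so these 4 genes formed a middle group whose order counting error does not fix. *DUT* passed 2-fold by a narrow margin, and with all libraries thinned to the smallest total its log2 ratio was −0.95. *DCK* shares its locus with *MOB1B* on the same strand, which had 805 and 596 fragments in these libraries (log2 ratio −0.25).

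*SAMHD1* (chr20:36889773-36951901, minus strand), the triphosphohydrolase that removes deoxynucleotides, had 1038 fragments in U87MG si-NC and 762 in U87MG si-*LINC00461*. It had 719 in R-U87MG si-NC and 502 in R-U87MG si-*HDAC6*. Its log2 ratio of −0.26 (−0.40 to −0.12) in U87MG was the smallest of the 8, and its interval lay apart from that of every other member. Among the 8 genes, that of the enzyme that degrades the pool was 1.20-fold lower, and those of the 7 enzymes that feed it were 1.79-fold to 10.4-fold lower. The contrast rests on 1 degrading enzyme. Of 13 further genes of nucleotide breakdown and pool sanitation compared, 7 lay below 0 and 6 above, from *NUDT1* at −1.13 to *TYMP* at 0.84.

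**Figure D2:**
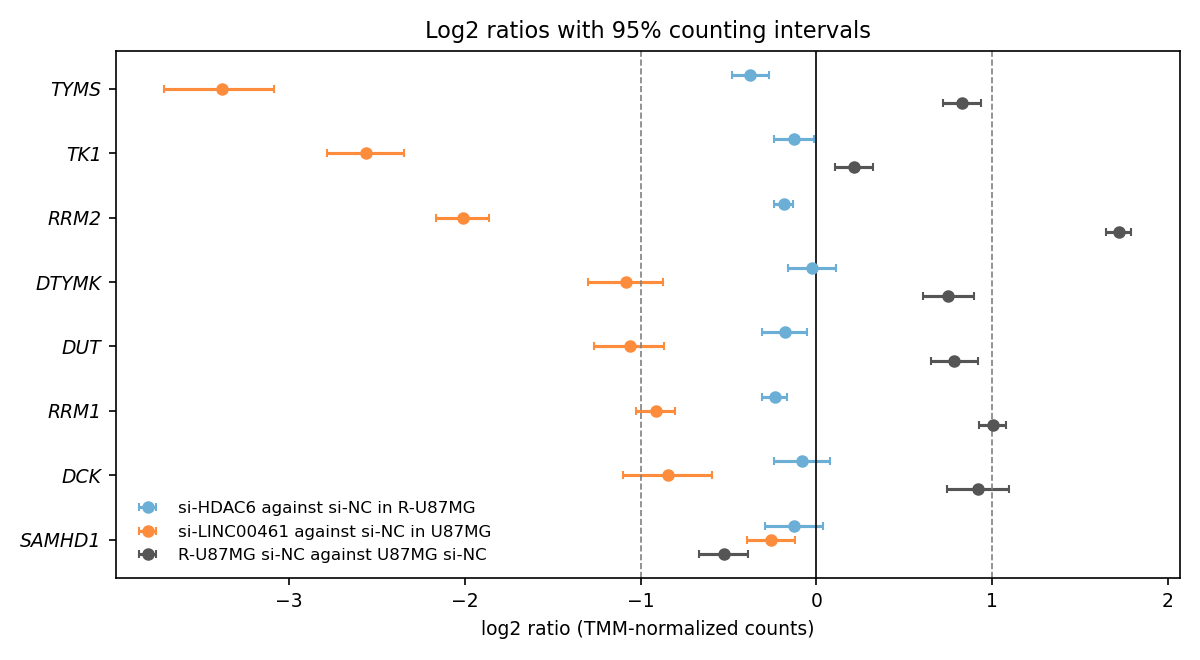
Log2 ratio of each of the 8 genes in the 3 comparisons, with bars for the 95% counting interval, 1 library on each side of a ratio and dashed lines at 2-fold. *TYMS* (−3.38), *TK1* (−2.56) and *RRM2* (−2.01) lie beyond the lower line in the si-*LINC00461* comparison, no gene passes 2-fold in the si-*HDAC6* comparison, and *RRM2* (1.72) stands apart in the comparison of the lines.

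Ratios of 2 genes within 1 library do not depend on how libraries are scaled against each other, but they depend on the exon lengths used. The per-length ratio of *RRM2* to *RRM1* was 0.789 (0.741 to 0.839) in U87MG si-NC and 0.368 (0.328 to 0.412) in U87MG si-*LINC00461*. *RRM2B*, the alternative small subunit, which p53 can induce, had 2235 and 2212 fragments in these libraries (log2 ratio 0.17), and the ratio of *RRM2* to *RRM2B* was 0.950 (0.894 to 1.01) against 0.209 (0.188 to 0.231). By merged exon length, the U87MG control thus held RNA of the small subunits at near equal levels. In the si-*LINC00461* library most of this RNA was that of *RRM2B*. Protein was not measured, and the shared stretches of *RRM2* named above bear on these ratios as well.

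The same contrast was seen for the thymidine kinases. *TK2*, the mitochondrial enzyme, had 510 fragments in U87MG si-NC and 868 in U87MG si-*LINC00461*, a log2 ratio of 0.95 (0.79 to 1.11). The per-length ratio of *TK1* to *TK2* was 10.1 (9.08 to 11.2) in the control and 0.879 (0.749 to 1.03) in the si-*LINC00461* library. There the RNA of the cytosolic form did not exceed that of the mitochondrial form. For the deoxycytidine and deoxyguanosine kinases the ratio of *DCK* to *DGUOK* was 0.289 (0.254 to 0.328) against 0.143 (0.121 to 0.168), with *DGUOK* at 629 and 622 fragments (log2 ratio 0.17). The ratio of *DUT* to *DTYMK* was 0.765 (0.686 to 0.853) and 0.776 (0.655 to 0.921), within counting error. *DCTD*, the deaminase that makes dUMP from dCMP, was higher, at 901 and 1209 fragments (log2 ratio 0.61).

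**Figure D3:**
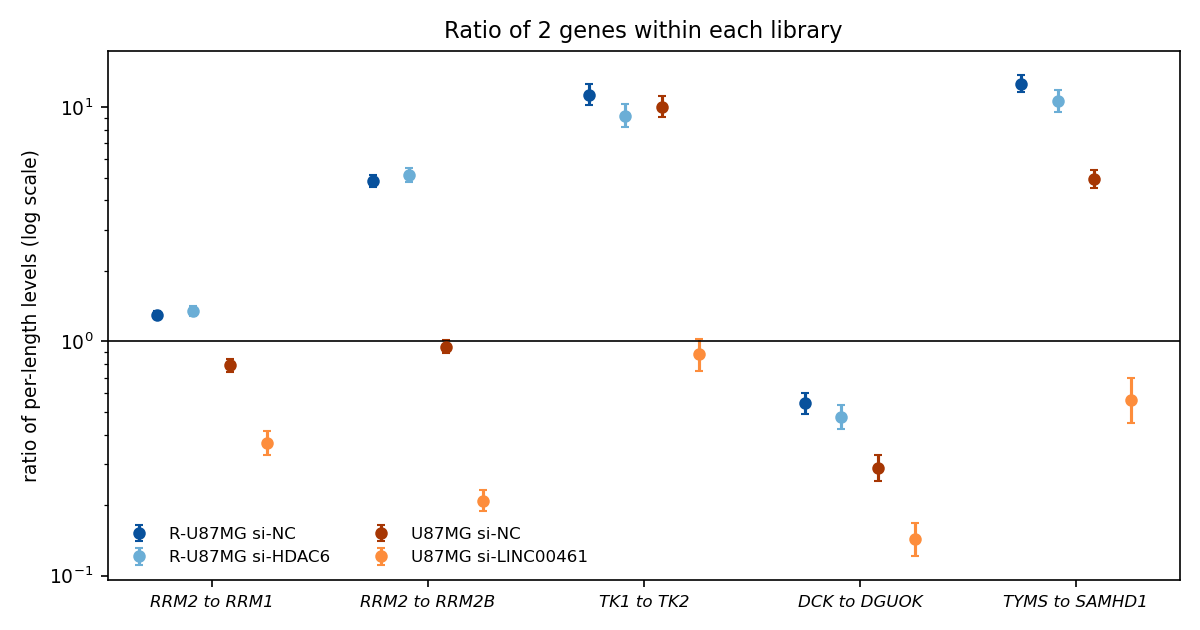
Ratio of the per-length levels of 2 genes within each of the 4 libraries on a log axis, with bars for the 95% counting interval and a line where both genes are equal. *TK1* to *TK2* lies between 9.18 and 11.3 in 3 libraries and at 0.879 in U87MG si-*LINC00461*, and *RRM2* to *RRM2B* lies above 1 in the R-U87MG libraries only.

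Among 56 further genes of nucleotide metabolism, 54 passed the filter in the si-*LINC00461* comparison, of which 3 were at least 2-fold lower and 1 was at least 2-fold higher, with a median log2 ratio of −0.09. The 3 were *SHMT2* of the folate cycle (−1.02), *NUDT1*, which clears oxidised nucleotides, and *PAICS* of de novo purine synthesis (−1.52). The 1 higher gene was *SHMT1*, the cytosolic serine hydroxymethyltransferase, with 36 and 88 fragments (log2 ratio 1.46). No gene of the reduction partners, of salvage or of de novo pyrimidine synthesis passed 2-fold, and *CDA* (−0.91) and *DHODH* (−0.88) were the lowest of the last 2 lists. Of 25 replication fork genes, 16 were at least 2-fold lower and none higher, with a median of −1.30, from *GINS2* at −3.04 to *RPA1* at 0.25. All 12 G2/M genes were at least 2-fold lower, with a median of −2.63, from *CCNA2* at −2.93 to *AURKA* at −1.65. The median of the 8 enzymes (−1.07) lay nearer to that of the fork genes than to that of the rest of nucleotide metabolism, and *TYMS* (−3.38) had the lowest ratio of all genes on these lists, with an interval that overlapped that of *GINS2* (−3.62 to −2.55).

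The comparison of si-*HDAC6* with si-NC in R-U87MG asks the same of the deacetylase. None of the 8 genes was at least 2-fold lower, against 0.747% of the 13120 genes compared, and none was at least 2-fold higher, against 0.694%. All 8 ratios lay below 0, with a median of −0.15 against −0.01 for all genes. The counting interval lay wholly below 0 for 5 of 8 genes, *TYMS*, *RRM1*, *RRM2*, *DUT* and *TK1*, against 16.4% of all genes, and wholly above 0 for none, against 13.8%. Intervals are narrower at high fragment counts and exclude 0 more easily, so these shares are not a like background for well-expressed genes. With 1 library on each side, differences of this size cannot be told from the spread between cultures.

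*TYMS* had the lowest ratio here too, with 1987 and 1167 fragments, or 119 and 92.6 CPM, and a log2 ratio of −0.38 (−0.48 to −0.27). *RRM1* (4053 and 2625 fragments) and *RRM2* (6697 and 4488 fragments) had log2 ratios of −0.24 (−0.31 to −0.16) and −0.19 (−0.24 to −0.13). Their per-length ratio was 1.30 (1.25 to 1.35) in si-NC and 1.34 (1.28 to 1.41) in si-*HDAC6*, within counting error. *DUT* had 1222 and 823 fragments and a log2 ratio of −0.18 (−0.31 to −0.05), and *TK1* (1540 and 1077) had one of −0.12 (−0.24 to −0.01). The intervals of the other 3 genes included 0, for *SAMHD1* (719 and 502 fragments) at −0.13 (−0.29 to 0.04), *DCK* (761 and 548) at −0.08 (−0.24 to 0.08) and *DTYMK* (1042 and 781) at −0.02 (−0.16 to 0.11). The ratio of *DCK* was 0.02 with libraries thinned to the smallest total. Every neighbouring pair of intervals overlapped in this comparison.

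Of the further nucleotide genes, 51 passed the filter in R-U87MG, none was at least 2-fold lower and 1 was at least 2-fold higher. It was again *SHMT1*, with 25 and 49 fragments (log2 ratio 1.35, interval 0.64 to 2.12), and the median was −0.06. *RRM2B* had a log2 ratio of −0.27 (−0.39 to −0.15) and *TK2* one of 0.18 (−0.01 to 0.36). The median was −0.18 for the 25 fork genes and −0.30 for the 12 G2/M genes, none of which passed 2-fold.

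The si-NC libraries of R-U87MG and U87MG differ in resistance, in TMZ in the medium and in the pair they were scaled with, and these cannot be told apart. Each control library is also the reference of a knockdown comparison above. The targeted genes themselves were lower in R-U87MG si-NC than in U87MG si-NC. *HDAC6* had 296 and 649 fragments (log2 ratio −1.13), and *LINC00461* had 154 and 363 (log2 ratio −1.23). In R-U87MG si-*HDAC6*, *LINC00461* had 80 fragments, a log2 ratio of −0.55 (−0.96 to −0.15) against its si-NC. The part of these differences in the enzyme levels was not tested. In R-U87MG si-NC, 2 of 8 genes, *RRM2* and *RRM1*, were at least 2-fold higher, against 11.2% of the 13349 genes compared, and none was at least 2-fold lower, against 15.0%. The median log2 ratio was 0.81 for the 8 genes and 0.02 for all genes. Scaling by total counts in place of TMM moved the median of all genes up by 0.26, and the share of higher genes among those past 2-fold went from 42.7% to 61.6%. Under that scaling 6 of the 8 genes passed 2-fold, and every member kept its sign. Over all genes, 2399 were at least 2-fold higher under it, against 1494 with TMM.

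*RRM2* had 6697 fragments in R-U87MG si-NC and 2037 in U87MG si-NC, or 402 and 102 CPM by library totals. With TMM its log2 ratio was 1.72 (1.65 to 1.79), or 3.30-fold higher, and with total counts it was 1.98. *RRM1* had 4053 and 2027 fragments and a log2 ratio whose interval (0.93 to 1.08) straddled 2-fold, and DESeq2 size factors put it just under that threshold. The interval of *RRM2* lay apart from that of every other member. The per-length ratio of *RRM2* to *RRM1* was 1.30 (1.25 to 1.35) in R-U87MG and 0.789 (0.741 to 0.839) in U87MG, and that of *RRM2* to *RRM2B* was 4.84 (4.57 to 5.12) and 0.950 (0.894 to 1.01). *RRM2B* itself had 1443 and 2235 fragments, a log2 ratio of −0.63 (−0.72 to −0.53). Without adjustment for length, the reductase subunits *RRM1* and *RRM2* made up 59.7% of the summed CPM of the 8 genes in R-U87MG si-NC. In U87MG si-NC they made up 43.7%.

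*DCK* (761 and 403 fragments), *TYMS* (1987 and 1122), *DUT* (1222 and 711) and *DTYMK* (1042 and 620) had log2 ratios of 0.92, 0.83, 0.78 and 0.75, and their neighbouring intervals overlapped. *TK1* had 1540 and 1332 fragments and a log2 ratio of 0.21 (0.11 to 0.32), the nearest to 0 of the 8 with TMM. With total counts the ratio of *TK1* was 0.48. *SAMHD1* was the 1 gene of the 8 with a lower level in R-U87MG, at 719 and 1038 fragments and a log2 ratio of −0.53 (−0.67 to −0.39). The per-length ratio of *TYMS* to *SAMHD1* was 12.6 (11.6 to 13.7) in R-U87MG si-NC and 4.93 (4.53 to 5.37) in U87MG si-NC.

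Of the further nucleotide genes, 53 passed the filter between the lines, with a median log2 ratio of 0.51. Of these, 16 were at least 2-fold higher in R-U87MG and 5 lower, against 11.2% and 15.0% of all genes. In de novo pyrimidine synthesis 3 of 5 genes were higher, with *CTPS1*, which makes CTP, at 2.10. Of the 25 fork genes 9 were higher and none lower, with a median of 0.83. Of the 12 G2/M genes 5 were higher and none lower, with a median of 0.94. With total counts in place of TMM these medians were 1.10 and 1.20, and that of de novo pyrimidine synthesis went from 1.30 to 1.57. *TXNRD1*, the thioredoxin reductase that keeps the electron donor of ribonucleotide reductase reduced, had 18377 fragments in R-U87MG si-NC and 3532 in U87MG si-NC (log2 ratio 2.38).

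**Figure D4:**
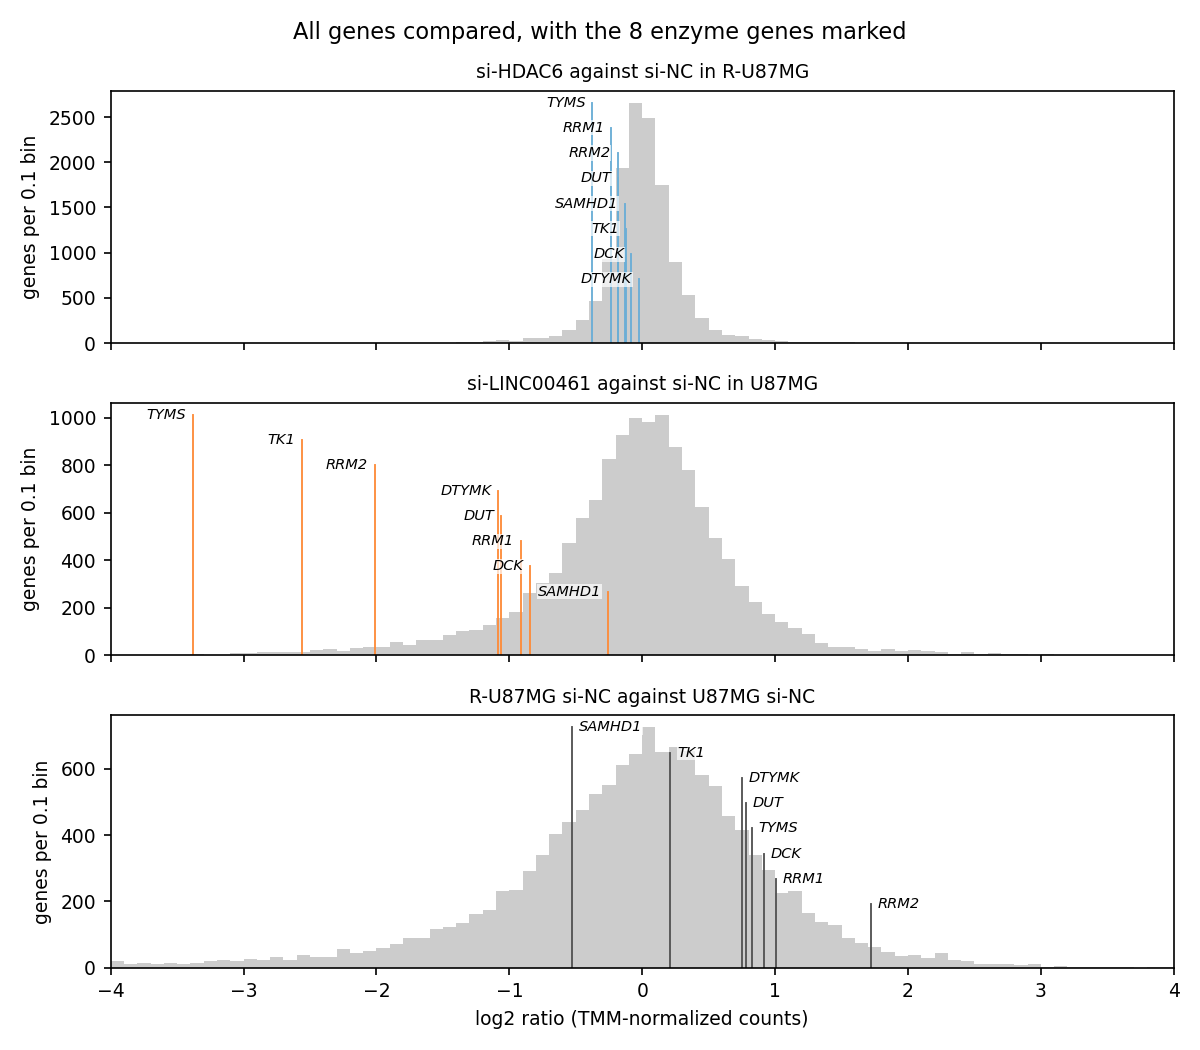
Number of genes per 0.1-wide bin of log2 ratio in the 3 comparisons, with a line at the ratio of each of the 8 genes (line heights carry no value). The axis is limited to the range from −4 to 4. The 8 genes lie between −0.38 and −0.02 for si-*HDAC6*, between −3.38 and −0.26 for si-*LINC00461* and between −0.53 and 1.72 between the lines.

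Likeness of pattern was measured as the Euclidean distance between gene-centred log2(CPM + 0.5) values over the 4 libraries, among 9462 genes with a mean of at least 10 CPM, as a description. The nearest gene to *TYMS* was *LMNB1*, the gene of lamin B1, at a distance of 0.0317, with 108, 83.4, 50.9 and 4.61 CPM in R-U87MG si-NC, R-U87MG si-*HDAC6*, U87MG si-NC and U87MG si-*LINC00461*, where *TYMS* had 119, 92.6, 56.0 and 5.29 CPM. *DIAPH3* came next at 0.148. *RRM2* was closest to *APOBEC3B* (0.128) and *GINS1* (0.142), *RRM1* to *STK17B* (0.0732) and *RMI1* (0.0805), and *TK1* to *KDELC2* (0.134) and *C12orf75* (0.135). *DUT* was closest to *FAR1* (0.0740) and *ARHGAP18* (0.0749), *DCK* to *RAB11FIP2* (0.0543) and *FHL2* (0.0668), *DTYMK* to *ZNF107* (0.0300) and *CEP78* (0.0597), and *SAMHD1* to *UCKL1* (0.0203) and *PAN3* (0.0423). Among the 8 genes themselves, *DUT* and *DTYMK* were closest (0.121) and *TYMS* and *SAMHD1* farthest apart (3.47).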

How the data were processed

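Total RNA of 4 cultures was made into strand-specific libraries by a service company. The submitters' processing notes name bcl2fastq, Trimmomatic 0.36, HISAT2 and GRCh38.p13, and the counting program is not given in the sources used here. Each table the authors deposited holds, for every Ensembl ID, an estimated count after scaling by a factor particular to the library (0.869 to 1.15), which puts both libraries of a pair on 1 scale. Values were divided by that factor, which made 93.4% to 94.1% of them whole within 0.02, and rounded. Log2 ratios used TMM (edgeR 4.0.16) with a pseudocount of 0.5 over genes with a mean of at least 1 CPM, and the call was a difference of at least 2-fold. The computation of ratios and intervals was checked on simulated counts with known folds. Exact 95% Clopper-Pearson intervals cover counting error only, since 1 library per condition shows no spread between cultures. They treat fragments as independent molecules, which they are not, so they can be too narrow even for counting error. Conditions were compared without a statistical test, as each had 1 library.

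All 8 members were named in every library, with the targeted genes, fixed counterparts (*RRM2B*, *TK2*, *DGUOK*, *DCTD*, *SHMT1*), overlapping genes, the extremes of each list described and the 2 genes nearest in pattern. *TXNRD1*, *CTPS1*, *PECAM1* and *OLIG2* are list extremes as well. The members and the lists were chosen with earlier results of these data known, and 1 gene of the lists is not reported here. Lengths and symbols came from GENCODE 29, in which 57888 IDs were found.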

Additional observations from a re-analysis of the deposited data

How the results depend on the processing

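No paired analysis was possible because each condition had 1 library and the labels give no replicate numbers, and for the same reason no replicate could be left out. Where the reported count of members past 2-fold was above 0, 14 of 21 alternatives stayed within 1.5 times it and 7 did not. Where it was 0, all 43 alternatives also gave 0. Several of these alternatives could hardly move a count, so the tallies measure robustness only in part. The members lay above each filter on low counts, and a pseudocount has little weight at their fragment counts. A stricter rule cannot raise a count of 0. The count of members at least 2-fold lower with si-*LINC00461* was 5, and it was 3 where the whole interval had to lie beyond 2-fold. The count of members at least 2-fold higher in R-U87MG si-NC than in U87MG si-NC was 2. It was 6 with total counts and at 1.5-fold. It was 1 with DESeq2 size factors, with upper-quartile scaling, with thinned libraries and with the interval rule. All genes at least 2-fold higher numbered 1494, and 2399 with total counts. They numbered 1488 with DESeq2 size factors, 1382 with upper-quartile scaling and 1523 with thinned libraries. The interval rule held for 846, and no such count is given here at 1.5-fold. Of the members' ratios, 152 of 160 stayed within their counting interval, and the other 8 moved with total counts between the lines. *TYMS* was at 1.09 there and *SAMHD1* at −0.26. That scaling adds the same 0.26 to the log2 ratio of every gene, and why it differs from TMM was not tested. Over all genes, a pseudocount of 5 changed the si-*HDAC6* split from 98 lower and 91 higher to 43 and 72. The authors' scaled values were not used between the lines, since the pairs were scaled separately. The difference between cultures of 1 condition is unknown here, and among the 8 genes the lowest count was 94 fragments, for *TYMS* in U87MG si-*LINC00461*.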
